A study of Homo sapiens with 15 samples.

Results

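BAQ12O was compared directly with BAQ13 in MIA PaCa-2 cells, a line established from a human pancreatic carcinoma, by RNA-seq. The comparison takes the 3 libraries whose labels name BAQ12O as the agent and the 3 that name BAQ13, which are 6 of the 15 libraries of the series, and all genes of the files. Of 60107 genes listed, 10234 had enough reads to be tested. The 3 vehicle libraries, labelled Ctrl, served as the background level and entered the same model. The other groups of the series, Lys05 and BAQ12, entered only alternative models, apart from the scaling of the deposited values, which took in all 15 libraries.

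Both agents were given at 5 µM for 24 h, per the series' design text, which writes 12O for the group whose samples are labelled BAQ12O. BAQ13 is one of the bisaminoquinoline derivatives that the study made by joining features of the autophagy inhibitor Lys05 with those of a lysosomal detergent, and it assembles into nanoparticles in water. BAQ12O is known here only by its label, and no source used here gives its structure or physical form. The pair was therefore compared as agents at 1 matched dose and 1 matched time. All libraries came from 1 cell line, and the labels do not say whether the replicates of a group were separate cultures. The study's general note on statistics defines n as replicates of a biological kind or of nanoparticle samples, without naming these libraries. The p-values measure the spread between these samples, which may be technical.

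Basic lipophilic compounds collect in lysosomes, the acidic compartment in which cells digest endocytosed and autophagic cargo. Cholesterol delivered by low-density lipoprotein is freed in lysosomes and leaves them through the Niemann-Pick proteins. When too little of it reaches the endoplasmic reticulum, INSIG lets go of the escort of the SREBP transcription factors. The SREBPs can then become active and switch on the enzymes of sterol and fatty acid synthesis. Liver X receptors respond in the opposite sense: oxysterols activate them, and they switch on sterol efflux pumps. Mitochondria have a small genome of their own, read from 2 strands, which encodes core respiratory chain subunits, ribosomal RNAs and transfer RNAs.

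Gene reads came to 1586566 to 2203652 in a BAQ12O library, 2285995 to 2497422 with BAQ13 and 1864594 to 2500551 with vehicle. Levels below are normalised read counts, that is, reads on a gene divided by the size factor of the library, and 3 reads corresponded to 2.49 to 4.14 of these units in the 9 libraries. BAQ13 replicates 1 and 3 were the least alike of the treated libraries used here, with a correlation of 0.967 over log2 levels, whereas the lowest value among the BAQ12O libraries was 0.976. The deviation of BAQ13 replicate 1 from its group ran with the GC content of genes (Spearman 0.223), and that of BAQ13 replicate 3 ran against it (Spearman -0.269). BAQ13 replicate 1 also correlated at 0.968 with replicate 3 of BAQ12, another agent, which is no lower than its correlation with BAQ13 replicate 3. Counts are therefore also given without BAQ13 replicate 1. The samples are labelled as epithelial cells of the pancreas. The keratins KRT8, KRT18 and KRT19 were present in every library, whereas the epithelial markers EPCAM and CDH1 had at most 1 and 2 reads in a library. Of 6 mesenchymal markers, VIM, COL1A2 and COL3A1 were present in every library, COL1A1 had at most 2 reads, and DCN and LUM had none. The acinar markers PRSS1, CPA1 and PNLIP had no reads and CEL had at most 2. The endothelial marker CDH5 was at 50.3 to 59.0 with vehicle, 50.4 to 55.3 with BAQ13 and 67.6 to 75.3 with BAQ12O, while PECAM1 had no reads and VWF at most 1. It was not called, and its part in other results was not tested. Of the leukocyte markers, CD3E had no reads and PTPRC, CD14 and LYZ had at most 6, 7 and 1.

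Of the 10234 genes, 265 differed between BAQ12O and BAQ13 at an adjusted p under 0.05 (limma, Benjamini-Hochberg), which is 2.59% of those tested. With BAQ12O, 109 genes were higher (1.07%) and 156 were lower (1.52%). Counts of called genes in the lists below stand against these shares. A single call in a list is not read as a result about that list. At the threshold that the study applied, a fold change of at least 2 with an unadjusted p of at most 0.05, 89 genes passed (0.87%), 40 higher and 49 lower. The split moved with the handling of low counts: it was 6 higher and 35 lower with a pseudocount of 5, 7 and 30 with at least 10 reads in every library, and 275 and 218 without a filter. Among the genes called by adjusted p, 43 were higher and 108 lower in the fit of the 6 treated libraries alone. The fit of all 15 libraries called 146 genes. That of 14 libraries, without BAQ12 replicate 3, called 389. Without BAQ13 replicate 1 the adjusted count was 473, and 241 of the 265 genes were still called. The count was 423 without BAQ13 replicate 3, 153 without BAQ12O replicate 3, and 140 without BAQ13 replicate 2 or without BAQ12O replicate 2. Leaving out any single library of the 9 turned the direction of none of the 265, and 106 of them (40 higher and 66 lower) kept the call in all 9 such fits. The median difference over all genes tested was close to 0, at -0.002 on the log2 scale. For reference, the same model called 335 genes (3.27%) between BAQ12O and vehicle and 1158 genes (11.3%) between BAQ13 and vehicle. Those 2 contrasts share the vehicle libraries with each other and a treated group each with the direct comparison, so their values are given below only side by side.

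**Figure D1:**
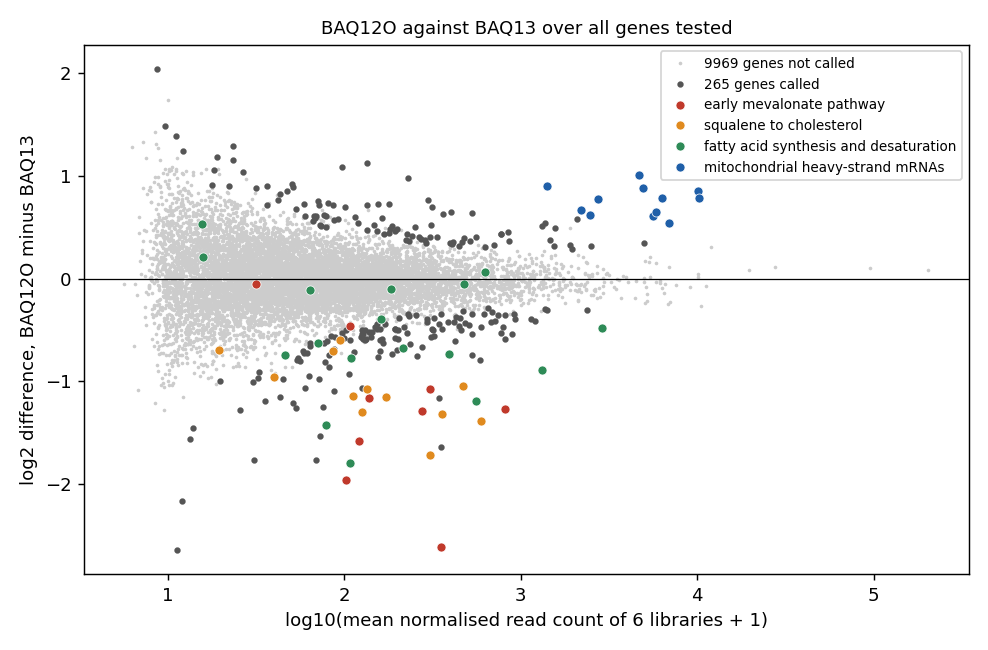
Log2 difference BAQ12O minus BAQ13 (vertical axis) against the log10 of the mean normalised read count of the 6 libraries plus 1 (horizontal axis), 1 point per gene, for the 10234 genes tested; dark points are the 265 genes called and colours mark 4 gene lists. The sterol enzymes lie low, down to -2.61, and the 12 mitochondrial heavy-strand mRNAs lie together above 0 at high levels.

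Sterol synthesis enzymes made up the lowest group of genes. In the early mevalonate pathway, 7 of 9 tested enzymes were lower with BAQ12O than with BAQ13 and none was higher, with a median log2 difference of -1.27. In the steps from squalene to cholesterol, 11 of 12 were lower and none was higher, with a median of -1.11. Without BAQ13 replicate 1 the counts of calls stayed at 7 and 11 and the medians were -1.18 and -1.10. The 3 BAQ12O libraries lay below the 3 BAQ13 libraries for 8 of the 9 and for 12 of the 12, where 18.9% of all genes tested had groups that did not overlap in either direction.

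HMGCS1 (chromosome 5, 43289395 to 43313512, minus strand, GENCODE 29 on GRCh38) makes the precursor of mevalonate and had the lowest difference of all genes with a mean level of at least 20. Its level was 545, 629.8 and 657 in the BAQ13 libraries, 102, 103 and 91.0 in the BAQ12O libraries and 59.8, 56.9 and 55.1 in the vehicle libraries. The 3 groups did not overlap, and BAQ12O lay between vehicle and BAQ13 and nearer to vehicle. The log2 difference BAQ12O minus BAQ13 was -2.61 ± 0.11 (SE, n = 3 and 3; adjusted p = 1.2e-12, limma). Against vehicle, the log2 differences were 0.77 with BAQ12O and 3.39 with BAQ13.

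The windows before the start sites of these genes are shown because the genes moved together. The 250 bases 5′ of the RefSeq start site (GRCh38.p14) were held for 16 of the 21 listed sterol enzymes. For IDI1 and DHCR7 that site lies 7534 and 4475 bases from the start of the gene model that was counted, and for the other 14 it lies within 1000 bases. The windows of the 3 enzymes with the largest differences are printed 5′ to 3′ on the gene's strand, with CCAAT or its reverse complement in capitals.
HMGCS1 (chr5:43313413-43313662, minus strand): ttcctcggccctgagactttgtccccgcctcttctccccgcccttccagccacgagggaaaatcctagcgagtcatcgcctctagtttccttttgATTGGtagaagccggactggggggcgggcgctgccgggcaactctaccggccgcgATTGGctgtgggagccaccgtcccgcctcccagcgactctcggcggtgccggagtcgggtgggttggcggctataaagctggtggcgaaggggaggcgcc
MVD (chr16:88663092-88663341, minus strand): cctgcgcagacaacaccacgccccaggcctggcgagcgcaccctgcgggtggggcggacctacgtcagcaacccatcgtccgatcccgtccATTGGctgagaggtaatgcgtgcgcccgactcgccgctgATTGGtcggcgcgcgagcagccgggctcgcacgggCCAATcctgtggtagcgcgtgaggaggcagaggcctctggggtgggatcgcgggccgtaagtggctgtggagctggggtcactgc
MSMO1 (chr4:165327419-165327668, plus strand): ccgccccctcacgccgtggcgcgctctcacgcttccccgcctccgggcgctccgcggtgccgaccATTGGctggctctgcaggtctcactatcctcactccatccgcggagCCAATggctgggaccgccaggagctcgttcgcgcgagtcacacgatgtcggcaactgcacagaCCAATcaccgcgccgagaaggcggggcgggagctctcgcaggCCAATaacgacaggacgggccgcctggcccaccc
CCAAT, the letters recognised by NF-Y, a factor known to act beside SREBPs, occurred on either strand in 12 of the 16 windows (75%), against 33% of 27305 windows of the same length in the table, and in 11 of the 14. HMGCS1 held 2 matches, MVD 3 and MSMO1 4. The share was 57.1% in the early mevalonate pathway and 88.9% from squalene to cholesterol. In the other lists examined, it ran from 25.8% (glycan and lipid hydrolases) to 41.2% (fatty acid synthesis and V-ATPase). The sterol regulatory element consensus TCACNCCAC occurred in 0 of the 16 and in 0.875% of all windows. A match describes these letters only, and the absence of one says nothing of the factor.

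MVD, the decarboxylase that ends the mevalonate segment, was at 181, 157 and 150.0 with BAQ13, 34.5, 41.9 and 46.9 with BAQ12O and 27.4, 23.4 and 16.5 with vehicle. As for HMGCS1, the BAQ12O libraries lay between the others and nearer vehicle, with a log2 difference of -1.96 ± 0.18 (adjusted p = 3.8e-07, limma). IDI1, which makes dimethylallyl diphosphate, differed by -1.58, FDPS, which makes farnesyl diphosphate, by -1.27, MVK, the mevalonate kinase, by -1.16, and ACAT2, the cytosolic thiolase, by -1.08. A further pair did not pass the test: GGPS1 differed by -0.46 (95% interval -0.72 to -0.20, adjusted p = 0.0546, limma) and PMVK by -0.05 (-0.52 to 0.41). GGPS1 passed narrowly, and only without BAQ13 replicate 3 among the 9 fits that left out 1 library (adjusted p = 0.0499, limma).

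Downstream of squalene, MSMO1, the methyl oxidase, had levels of 488, 472 and 448 with BAQ13, 139, 142 and 146 with BAQ12O and 69.7, 51.4 and 75.3 with vehicle. Each group was tight and none overlapped another, and the log2 difference was -1.71 ± 0.12 (adjusted p = 1.1e-08, limma). SQLE, the squalene epoxidase, was at 551, 513 and 464 with BAQ13, 193, 207 and 212 with BAQ12O and 144, 126 and 133 with vehicle, a difference between the agents of -1.31 ± 0.10 (adjusted p = 1.5e-08, limma). FDFT1, which makes squalene, ranged from 803 to 887 with BAQ13 and from 277 to 388 with BAQ12O and differed by -1.39 ± 0.10 (adjusted p = 1.5e-08, limma). The cyclase LSS (-1.30), DHCR7 (-1.14), NSDHL (-1.08), the isomerase EBP (-1.05), SC5D (-0.95), TM7SF2 (-0.71) and HSD17B7 (-0.60) were lower, with the log2 differences in brackets. CYP51A1, the lanosterol demethylase, averaged 23.4 ± 6.66 with BAQ13 and 13.9 ± 3.03 with BAQ12O (SD) and did not pass, at -0.69 (95% interval -1.36 to -0.02). Leaving out 1 library ended the call of SC5D (in 3 of the 9 fits, adjusted p up to 0.1 without BAQ13 replicate 2), HSD17B7 (in 3 of the 9 fits, adjusted p up to 0.12 without BAQ12O replicate 2) and TM7SF2 (without BAQ13 replicate 2, adjusted p = 0.061). SC5D and HSD17B7 lost the call with all 15 libraries (adjusted p 0.08 to 0.21).

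**Figure D2:**
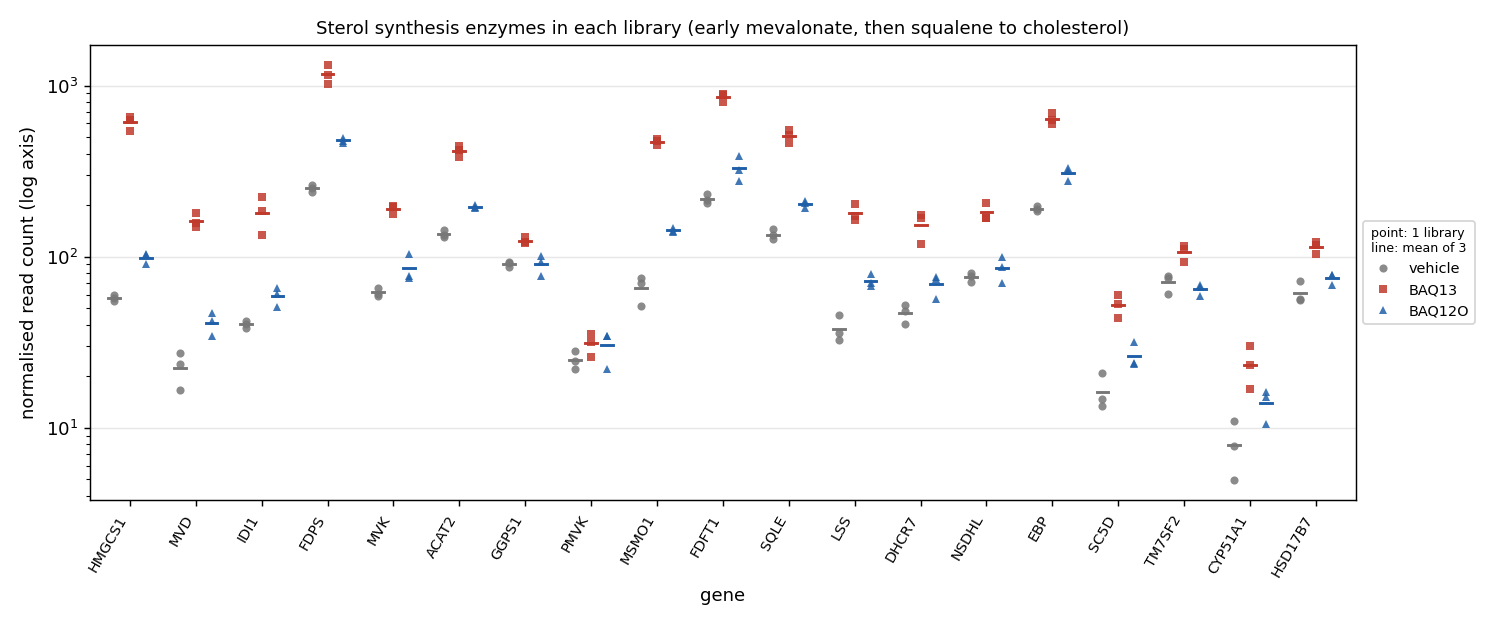
Normalised read count (log axis) of 19 sterol synthesis enzymes in the 3 vehicle (grey circles), 3 BAQ13 (red squares) and 3 BAQ12O libraries (blue triangles), with a line at each group's mean. For 18 of the 19 enzymes the BAQ13 libraries lie above all others, and for PMVK the 3 groups overlap.

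Fatty acid synthesis, the second branch under SREBP control, was lower with BAQ12O for 9 of 17 tested genes and higher for none. Among all genes tested, 1.52% were lower. The list's median was -0.62. Without BAQ13 replicate 1, 10 of the 17 were lower. ACSS2, which makes acetyl-CoA from acetate, was at 183, 159 and 161 with BAQ13, 48.5, 43.9 and 49.6 with BAQ12O and 15.8, 30.1 and 29.4 with vehicle. The BAQ13 libraries lay far above the other 6, and the difference was -1.80 ± 0.19 (adjusted p = 3.2e-06, limma). FASN, the fatty acid synthase, was at 1794, 1634 and 1696 with BAQ13, 926, 935 and 903 with BAQ12O and 496, 495 and 506 with vehicle. For FASN, BAQ12O lay clear of both other groups, with differences of -0.89 from BAQ13 (adjusted p = 2.8e-08, limma) and 0.88 from vehicle. The elongase ELOVL6 (-1.42), ACLY (-1.19), ME1 (-0.78), ACSL1 (-0.74), LPIN1 (-0.73), ACSL4 (-0.67) and the desaturase SCD (-0.48) were also lower. The call of ACSL1 (in 6 of the 9 fits, adjusted p up to 0.21 without BAQ13 replicate 2) did not hold throughout. ACSL1 lost the call with all 15 libraries (adjusted p = 0.2), by DESeq2 (adjusted p = 0.11), without a filter on low counts (adjusted p = 0.051) and with pseudocount 0.1 (adjusted p = 0.052).

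Genes that sense sterols or handle LDL did not move as a block: 2 of 13 were higher with BAQ12O, 3 were lower, and the median was 0.00. INSIG1, itself an SREBP target that holds the SREBP escort in place, was at 467, 541 and 602 with BAQ13, 158, 182 and 174 with BAQ12O and 108, 132 and 123 with vehicle. It differed by -1.64 ± 0.11 (adjusted p = 6.4e-09, limma), with no overlap of any groups. NPC2, which hands cholesterol on inside the lysosome, was also lower (-0.56, adjusted p = 0.0019, limma). SREBF1, which encodes an SREBP, ran the other way, with levels of 29.9, 34.6 and 34.4 with BAQ13 and 70.1, 55.3 and 56.5 with BAQ12O, a difference of 0.86 ± 0.17 (adjusted p = 0.0058, limma). SREBF2, which encodes the SREBP tied most closely to sterol synthesis, differed by -0.19 (95% interval -0.41 to 0.03) and did not pass.

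Among 7 liver X receptor targets and efflux genes, 2 were higher with BAQ12O, 1 was lower, and the median was 0.53. ABCA1, the pump that loads cholesterol onto apolipoprotein, had 2, 2 and 4 reads in the BAQ13 libraries and 17, 9 and 9 in the BAQ12O libraries. All BAQ12O libraries lay above all BAQ13 libraries and around the vehicle levels of 10.8, 8.93 and 9.18. The ratio of summed reads per summed size factor, BAQ12O to BAQ13, was 5.44 (exact 95% interval 2.48 to 13.6, counting error only), and the adjusted p was 0.0035 (limma). MYLIP, a ubiquitin ligase that liver X receptors induce, belongs to both lists and was at 33.6, 30.1 and 26.8 with BAQ13, 47.4, 50.5 and 57.9 with BAQ12O and 57.3, 50.2 and 61.5 with vehicle, a difference of 0.77 ± 0.17 (adjusted p = 0.015, limma). The related pump ABCG1 did not pass at 8, 8 and 4 reads against 16, 18 and 7 (1.18, 95% interval 0.50 to 1.85, adjusted p = 0.057, limma), but it did without BAQ13 replicate 1 or without BAQ12O replicate 3 (adjusted p = 0.016 and 0.04). APOC1, a lipoprotein component, was lower (-0.72). The calls of SREBF1 (without BAQ12O replicate 1, adjusted p = 0.053), MYLIP (in 3 of the 9 fits, adjusted p up to 0.089 without BAQ12O replicate 3) and APOC1 (without BAQ13 replicate 2, adjusted p = 0.11 and without BAQ12O replicate 2, adjusted p = 0.063) did not hold in every fit that left out 1 library. MYLIP lost the call with the 6 treated libraries alone (adjusted p = 0.052) and by DESeq2 (adjusted p = 0.068).

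The 12 mRNAs of the heavy strand of the mitochondrial genome were all higher with BAQ12O than with BAQ13, by 0.55 to 1.01 on the log2 scale (median 0.78), and all 12 kept the call without each library in turn, although MT-CO2 lost it with all 15 libraries. MT-ND3 and MT-ND4L, subunits of complex I, differed by 1.01 ± 0.08 (adjusted p = 3.9e-08, limma) and 0.91 ± 0.08 (adjusted p = 9.1e-08, limma). MT-ND3 was at 2869, 3063 and 3435 with BAQ13, 5875, 5857 and 7175 with BAQ12O and 9729.5, 10324 and 10062 with vehicle. No 2 groups overlapped, with vehicle highest and BAQ13 lowest. MT-CO3, a subunit of cytochrome c oxidase, was at 5162, 4472 and 4038 with BAQ13, 7042, 7180.0 and 7187 with BAQ12O and 14556, 13987 and 13901 with vehicle, a difference between the agents of 0.65 ± 0.07 (adjusted p = 6.5e-06, limma). The same order of groups held for MT-ATP6, a subunit of ATP synthase, which differed by 0.55 ± 0.08 (adjusted p = 0.00025, limma). MT-ND2 (0.89), MT-ND4 (0.86), MT-ND5 (0.79), MT-ATP8 (0.78), MT-ND1 (0.77), MT-CO1 (0.67), MT-CO2 (0.62) and MT-CYB (0.61) complete the list.

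The other mitochondrial transcripts were mixed. MT-ND6, the single mRNA of the light strand, was at 1154, 997 and 884 with BAQ13, 841, 804 and 775 with BAQ12O and 563, 481 and 476 with vehicle. It did not pass the test, with a difference of -0.32 (95% interval -0.51 to -0.13, adjusted p = 0.067, limma), and it passed only without BAQ13 replicate 3 (adjusted p = 0.0042) among the fits that left out 1 library. The ribosomal RNAs MT-RNR1 and MT-RNR2 differed by 0.11 (95% interval -0.05 to 0.26) and 0.09 (-0.08 to 0.25), and neither passed. Of the 21 tested genes that are not heavy-strand mRNAs, 4 transfer RNA genes were higher, MT-TI (1.09), MT-TS2 (0.99), MT-TL2 (0.74) and MT-TM (0.64). Without BAQ13 replicate 1, 8 of the 21 were higher. Over all genes, 208 of 10407 tested were higher in that fit, against 109 of 10234 in the main fit. Copies of mitochondrial genes in nuclear chromosomes can share reads with them, and the handling of such reads is not given in the sources used here. The share of all reads that fell on the mitochondrial genome was 16.5% to 18.7% with BAQ13, 19.0% to 20.4% with BAQ12O and 17.4% to 18.1% with vehicle, and its part in these differences was not tested. None of the 76 nuclear-encoded respiratory chain subunits was called, with a median of -0.01. The calls of MT-TL2 (without BAQ13 replicate 2, adjusted p = 0.1 and without BAQ12O replicate 2, adjusted p = 0.085) and MT-TM (in 3 of the 9 fits, adjusted p up to 0.093 without BAQ12O replicate 2) were lost in part. MT-CO2, MT-TS2, MT-TL2 and MT-TM lost the call with all 15 libraries (adjusted p 0.056 to 0.29), MT-TL2 and MT-TM with the 6 treated libraries alone (adjusted p 0.062 to 0.081) and MT-TM by DESeq2 (adjusted p = 0.2).

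**Figure D3:**
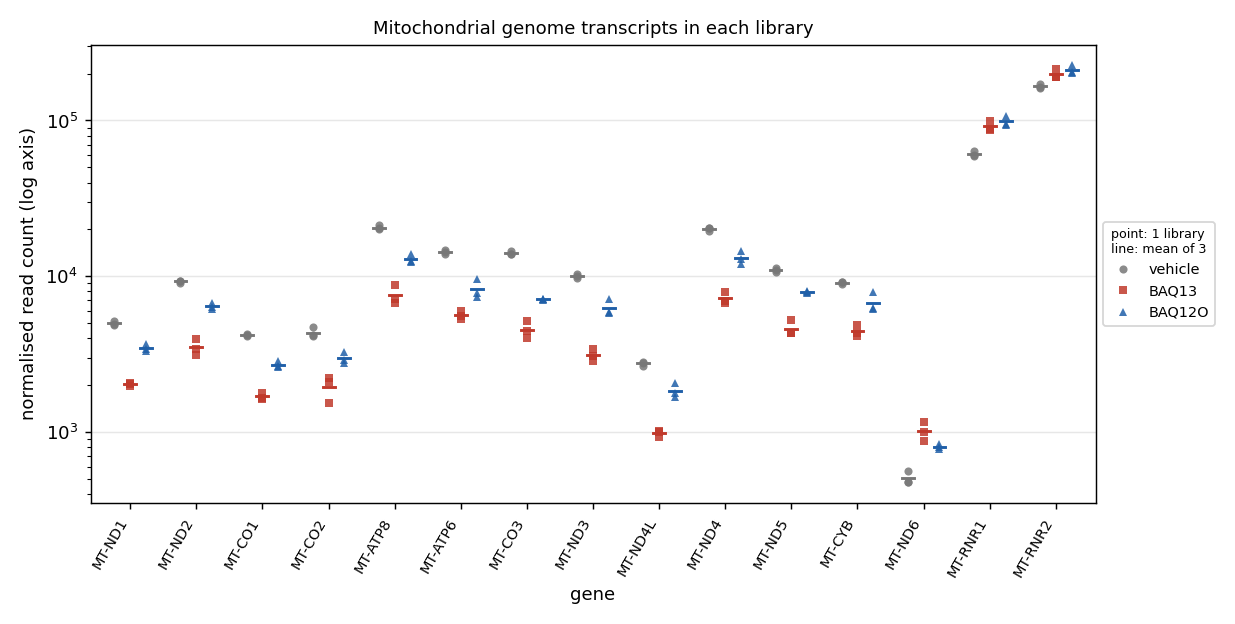
Normalised read count (log axis) of 12 mitochondrial heavy-strand mRNAs, the light-strand mRNA MT-ND6 and the ribosomal RNAs MT-RNR1 and MT-RNR2 in the 9 libraries, with a line at each group's mean (grey circles vehicle, red squares BAQ13, blue triangles BAQ12O). For the 12 heavy-strand mRNAs BAQ12O lies between vehicle above and BAQ13 below, whereas MT-ND6 has vehicle lowest.

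Over 5 lists of lysosomal genes, 7 of 99 were called (7.07%), where 2.59% of all genes tested were. Of the 36 glycan and lipid hydrolases, 1 was called, NEU1, the lysosomal sialidase, whose levels were 87.7, 97.5 and 98.1 with BAQ13, 53.9, 47.7 and 41.4 with BAQ12O and 36.5, 22.3 and 31.2 with vehicle. The 3 groups did not overlap, and NEU1 was lower with BAQ12O, with a difference of -0.98 ± 0.18 (adjusted p = 0.0028, limma). Of 23 lysosomal membrane proteins, 2 were lower, the sialic acid exporter SLC17A5 (-0.49, adjusted p = 0.025, limma) and TMEM55B (-0.68, adjusted p = 0.047, limma). SLC17A5 was at 177, 175 and 186 with BAQ13, 115, 137 and 131 with BAQ12O and 76.4, 69.2 and 64.3 with vehicle, again with BAQ12O between. LAMP1 (-0.14, 95% interval -0.38 to 0.10) and LAMP2 (-0.31, -0.48 to -0.13, adjusted p = 0.055, limma), the main glycoproteins of the lysosomal membrane, did not pass, although LAMP2 did without BAQ13 replicate 1 (adjusted p = 0.017). These lists had medians of -0.01 and -0.08.

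The V-ATPase, the proton pump that acidifies lysosomes, had 2 of 17 tested genes lower, where 1.52% of all genes were. The V-ATPase median was -0.10. Its accessory subunit ATP6AP1 differed by -0.59 ± 0.14 (adjusted p = 0.023, limma) and the stalk subunit ATP6V1G1 by -0.43 ± 0.09 (adjusted p = 0.0076, limma). ATP6V0D1 had levels of 45.7, 46.5 and 55.3 with BAQ13 and 33.4, 23.8 and 22.1 with BAQ12O, without overlap, and just missed the threshold (-0.89, 95% interval -1.40 to -0.38, adjusted p = 0.056, limma). It passed in 3 of the 9 fits that left out 1 library, with the lowest adjusted p of 0.024 without BAQ13 replicate 1. Without BAQ13 replicate 1, 4 V-ATPase genes were called lower, where 265 of all 10407 genes tested in that fit were. None of 10 lysosomal ion channels passed, and the chloride transporters CLCN5 and CLCN7 differed by -0.24 (95% interval -0.60 to 0.12) and -0.21 (-0.66 to 0.23).

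In the list of cathepsins, the lysosomal proteases, and their cystatin inhibitors, 2 of 13 tested genes were higher with BAQ12O, where 1.07% of all genes were. CTSC was at 1632, 1726 and 1664 with BAQ13, 2431, 2394 and 2687 with BAQ12O and 2579, 2577 and 2625 with vehicle. CTSB was at 215, 206 and 199 with BAQ13, 268, 281 and 336 with BAQ12O and 292, 262 and 276 with vehicle. For both, the BAQ13 libraries were low, and the BAQ12O range overlapped that of vehicle. The differences were 0.58 ± 0.07 (adjusted p = 6.5e-06, limma) and 0.51 ± 0.10 (adjusted p = 0.0043, limma), and both calls held without each library in turn. CTSD and CTSA did not pass, at -0.12 (95% interval -0.36 to 0.11) and -0.14 (-0.38 to 0.10).

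Autophagy genes had 4 of 45 lower with BAQ12O and none higher, where 1.52% of all genes were lower. Their median was -0.12. SQSTM1, the cargo receptor also called p62, was at 720.4, 659.9 and 709.9 with BAQ13, 489, 543 and 474 with BAQ12O and 282, 309 and 312 with vehicle. The groups did not overlap, with BAQ12O in the middle, and the difference was -0.47 ± 0.08 (adjusted p = 0.0015, limma). OPTN, another cargo receptor, was at 370.5, 333 and 315 with BAQ13 and 189.7, 205 and 248 with BAQ12O (-0.67, adjusted p = 0.00065, limma). RRAGD, a GTPase that recruits the mTOR complex to lysosomes, differed by -0.64 (adjusted p = 0.001, limma) and MAP1LC3B, the autophagosome marker LC3B, by -0.49 (adjusted p = 0.012, limma). GABARAPL1, a relative of LC3B, was at 34.5, 36.5 and 30.2 with BAQ13 and 29.1, 39.1 and 30.3 with BAQ12O and did not pass (-0.04, 95% interval -0.48 to 0.39). In the list of lysosome damage and membrane repair genes, 2 of 21 were lower, CHMP2B (-0.51) and the galectin LGALS1 (-0.32). Among the lysosomal and autophagy genes, the call was lost on leaving out 1 library for SLC17A5 (in 4 of the 9 fits, adjusted p up to 0.13 without BAQ12O replicate 1), TMEM55B (in 7 of the 9 fits, adjusted p up to 0.18 without BAQ12O replicate 2), ATP6AP1 (in 3 of the 9 fits, adjusted p up to 0.17 without BAQ12O replicate 3), ATP6V1G1 (without BAQ12O replicate 2, adjusted p = 0.07), MAP1LC3B (in 3 of the 9 fits, adjusted p up to 0.09 without BAQ13 replicate 2), CHMP2B (without BAQ12O replicate 2, adjusted p = 0.068 and without BAQ12O replicate 1, adjusted p = 0.063) and LGALS1 (in 6 of the 9 fits, adjusted p up to 0.25 without BAQ13 replicate 2). SLC17A5, TMEM55B, ATP6AP1, MAP1LC3B and LGALS1 lost the call with all 15 libraries (adjusted p 0.054 to 0.21), TMEM55B and LGALS1 with the 6 treated libraries alone (adjusted p 0.072 to 0.13), SLC17A5 and LGALS1 by DESeq2 (adjusted p 0.057 to 0.079), LGALS1 with the GC correction (adjusted p = 0.1) and LGALS1 with a replicate block and GC correction (adjusted p = 0.12).

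**Figure D4:**
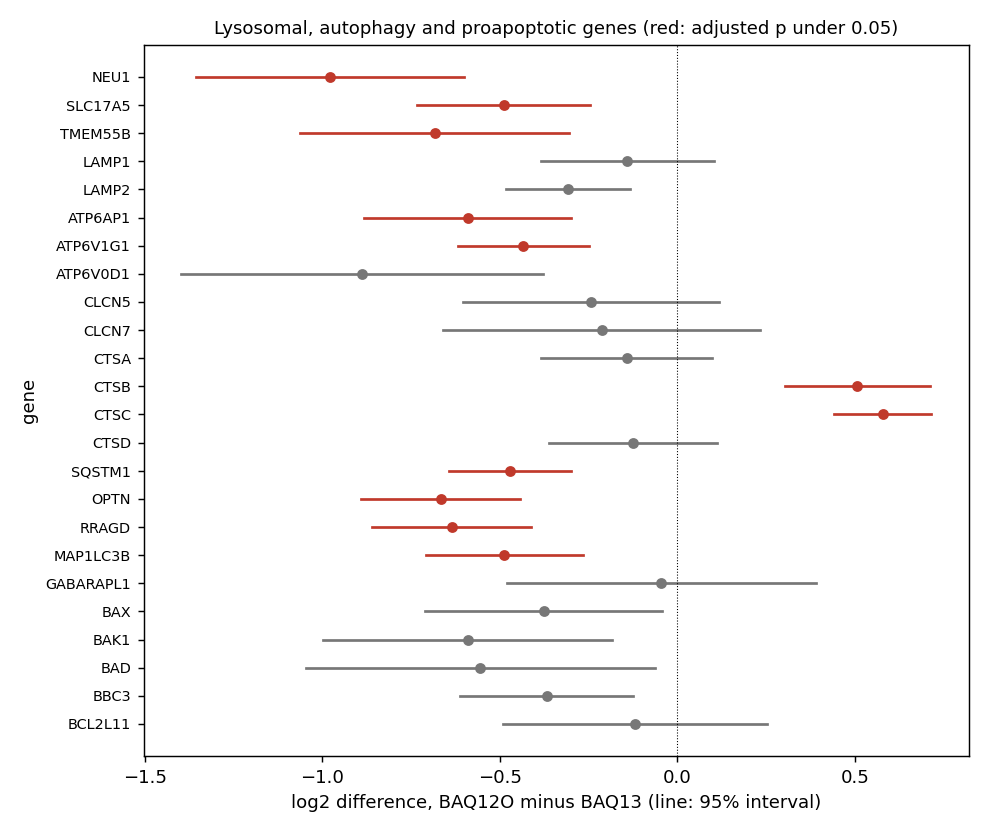
Log2 difference BAQ12O minus BAQ13 (horizontal axis) with its 95% interval from the limma fit for 24 lysosomal, autophagy and proapoptotic genes (vertical axis), red where the adjusted p is under 0.05. CTSB and CTSC lie above 0, the other called genes lie below 0, and the 5 proapoptotic genes at the bottom are not called.

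None of 12 tested genes of the BCL2 family, which set the threshold of mitochondrial apoptosis, was called, and the median was -0.32, or -0.09 without BAQ13 replicate 1. The proapoptotic members BAX (-0.38, 95% interval -0.71 to -0.04), BAK1 (-0.59, -0.997 to -0.18), BAD (-0.56, -1.05 to -0.06), BBC3 (-0.37, -0.61 to -0.12) and BCL2L11 (-0.12, -0.49 to 0.25) had estimates below 0. BID, also proapoptotic, had one above 0 (0.24, 0.03 to 0.46). The groups did not overlap for 1 member in the higher direction, BID, and for 4 in the lower, BAK1 among them. Of all genes tested, 18.9% had groups that did not overlap in either direction. Of the 12 members, 4 lay above 0 and 8 below. BBC3 passed without BAQ13 replicate 1 (adjusted p = 2.5e-06). A p that misses the threshold does not show that the agents act alike on these genes. CDKN1A, the p53 target that arrests the cycle, had 15, 14 and 13 reads with BAQ13 and 6, 5 and 8 with BAQ12O, with levels that overlapped after normalisation, and did not pass (adjusted p = 0.45, limma). In the list of p53-responsive genes 1 of 21 was lower, SESN2, which also belongs to the next list, and the median was -0.37.

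In the integrated stress response, the programme that ATF4 drives when translation initiation is restrained, the median was -0.27. Shares over all genes were 1.52% lower and 1.07% higher. In this list 5 of 29 genes were lower with BAQ12O and none was higher. They were ATF5 (-0.73), the transfer RNA ligases WARS (-0.70) and AARS (-0.53), SESN2 (-0.59) and the cystine transporter SLC7A11 (-1.0). AARS was at 915, 912 and 922 with BAQ13, 626, 629 and 649 with BAQ12O and 589, 553 and 571 with vehicle, which puts the BAQ13 libraries above the other 6. ATF5 differed in this: it was at 267, 238 and 197 with BAQ13, 136, 161 and 124 with BAQ12O and 190, 203 and 207 with vehicle. Its BAQ12O libraries lay below the other 6. Against vehicle, the log2 differences with BAQ12O and BAQ13 were -0.52 and 0.21 for ATF5, 0.04 and 0.74 for WARS and -0.17 and 0.41 for SESN2. Widely used reporters of the same response were not called: DDIT3 (-0.24, 95% interval -0.63 to 0.14), ASNS (-0.12, -0.38 to 0.15) and CHAC1, which had 21, 25 and 32 reads with BAQ13 and 15, 18 and 3 with BAQ12O (-1.03, -1.77 to -0.29). Of 22 genes of the unfolded protein response 1 was higher, the disulphide isomerase PDIA3 (0.31), and of 14 heat shock genes 1 was lower, the cochaperone DNAJB1 (-0.43). Calls that did not survive leaving out 1 library were those of SESN2 (without BAQ12O replicate 3, adjusted p = 0.06 and without BAQ13 replicate 2, adjusted p = 0.0502), SLC7A11 (in 7 of the 9 fits, adjusted p up to 0.2 without BAQ12O replicate 3), PDIA3 (in 6 of the 9 fits, adjusted p up to 0.16 without BAQ12O replicate 2) and DNAJB1 (in 3 of the 9 fits, adjusted p up to 0.087 without BAQ13 replicate 2). SLC7A11 and PDIA3 lost the call with all 15 libraries (adjusted p 0.16 to 0.19), SLC7A11 and PDIA3 with the 6 treated libraries alone (adjusted p 0.11 to 0.13), SLC7A11 by edgeR's quasi-likelihood test (adjusted p = 0.085), SLC7A11 without a filter on low counts (adjusted p = 0.057) and SLC7A11 with a replicate block (adjusted p = 0.0503).

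In the list named oxidative stress and ferroptosis defence, 6 of 27 genes were lower with BAQ12O and none was higher. The share called lower among all genes was 1.52%. Not every member of the list acts in defence, ACSL4 among them. HMOX1, haem oxygenase, was at 222, 164 and 127 with BAQ13, 86.2, 75.3 and 75.8 with BAQ12O and 47.3, 45.8 and 45.0 with vehicle. The groups were apart, with a difference of -1.07 ± 0.16 (adjusted p = 0.00026, limma). PGD of the pentose phosphate pathway (-0.74), FTH1, the ferritin heavy chain (-0.50), and TXNRD1, thioredoxin reductase (-0.40), were lower too, as were ACSL4 and SLC7A11, which stand in lists above. Of 14 iron handling genes, the 2 called were HMOX1 and FTH1. Of 29 hypoxia and glycolysis genes 1 was lower, the aldolase ALDOC, at 74.7, 85.7 and 62.0 with BAQ13, 32.3, 21.9 and 38.6 with BAQ12O and 10.8, 12.3 and 8.26 with vehicle (-1.26, adjusted p = 0.0029, limma). The calls of FTH1 (in 7 of the 9 fits, adjusted p up to 0.28 without BAQ12O replicate 3) and PGD (without BAQ12O replicate 2, adjusted p = 0.06) were not kept throughout. HMOX1 and FTH1 lost the call with all 15 libraries (adjusted p 0.08 to 0.42) and FTH1 with the 6 treated libraries alone (adjusted p = 0.15).

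Among 21 inflammatory and immediate early genes, 3 tied to NF-κB signalling were lower with BAQ12O and none was higher. The share called lower among all genes was 1.52%. BIRC3, an inhibitor of apoptosis that NF-κB induces, was at 99.8, 111 and 106 with BAQ13, 24.8, 41.0 and 27.6 with BAQ12O and 24.1, 21.2 and 25.7 with vehicle. The BAQ12O range overlapped vehicle, and the difference from BAQ13 was -1.77 ± 0.19 (adjusted p = 3.2e-06, limma). RELB, an NF-κB subunit, differed by -1.19 and NFKBIA, an NF-κB inhibitor, by -0.41, with calls that were lost for RELB (without BAQ12O replicate 3, adjusted p = 0.069 and without BAQ13 replicate 2, adjusted p = 0.061) and NFKBIA (in 8 of the 9 fits, adjusted p up to 0.22 without BAQ13 replicate 2). Outside the lists, TSC22D3, a glucocorticoid-induced leucine zipper gene, was at 33.6, 41.0 and 66.2 with BAQ13 and 12.9, 12.4 and 12.4 with BAQ12O (-1.76, adjusted p = 0.00069, limma). SLC2A6, a hexose transporter of lysosomes, was at 105, 101 and 118 with BAQ13, 38.8, 29.6 and 42.7 with BAQ12O and 29.1, 22.3 and 18.4 with vehicle (-1.53, adjusted p = 2.6e-05, limma). RELB, NFKBIA and TSC22D3 lost the call with all 15 libraries (adjusted p 0.0503 to 0.5) and NFKBIA with the 6 treated libraries alone (adjusted p = 0.13).

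Among 37 genes of G2 and mitosis 4 were higher with BAQ12O, where 1.07% of all genes were, the kinase CDK1 (0.48), its cyclin CCNA2 (0.38), HMMR (0.36) and the kinetochore gene NUF2 (0.36), with a median of 0.15. CDK1 was at 146, 152 and 204 with BAQ13, 252, 215 and 229 with BAQ12O and 211, 231 and 221 with vehicle, and none of 33 S phase genes was called. None of these 4 calls held in every fit that left out 1 library, and they were lost for CDK1 (in 6 of the 9 fits, adjusted p up to 0.16 without BAQ13 replicate 2), CCNA2 (in 7 of the 9 fits, adjusted p up to 0.25 without BAQ13 replicate 2), HMMR (in 3 of the 9 fits, adjusted p up to 0.15 without BAQ12O replicate 3) and NUF2 (in 8 of the 9 fits, adjusted p up to 0.16 without BAQ12O replicate 3). In the list of metallothioneins and zinc transporters 3 of 22 were higher, MT1A, MT2A and MT1E, which bind metal ions, and 2 were lower, SLC30A3 (-0.69) and SLC39A10 (-0.31). MT1A was at 27.1, 37.4 and 37.7 with BAQ13, 61.4, 62.9 and 70.3 with BAQ12O and 62.3, 58.1 and 52.3 with vehicle (0.92, adjusted p = 0.0025, limma), and MT2A and MT1E differed by 0.35 and 0.38. The metallothioneins are near-identical copies, so reads may be split among them. The calls of MT1E (in 8 of the 9 fits, adjusted p up to 0.27 without BAQ12O replicate 3), SLC30A3 (in 3 of the 9 fits, adjusted p up to 0.12 without BAQ12O replicate 3) and SLC39A10 (without BAQ12O replicate 2, adjusted p = 0.067 and without BAQ13 replicate 2, adjusted p = 0.057) were lost in part. CDK1, CCNA2, HMMR, NUF2, MT1A, MT2A, MT1E and SLC39A10 lost the call with all 15 libraries (adjusted p 0.066 to 0.53), CDK1, CCNA2, HMMR, NUF2, MT2A, MT1E and SLC39A10 with the 6 treated libraries alone (adjusted p 0.059 to 0.16), CCNA2, NUF2 and MT1E by DESeq2 (adjusted p 0.057 to 0.1), MT1E by edgeR's quasi-likelihood test (adjusted p = 0.055), HMMR with the GC correction (adjusted p = 0.066), CCNA2 and HMMR with a replicate block and GC correction (adjusted p 0.052 to 0.076), MT1E with pseudocount 0.1 (adjusted p = 0.053) and MT1E with at least 10 reads in every library (adjusted p = 0.051).

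Extracellular matrix and adhesion had 1 of 15 higher, PLAUR (0.91, call lost in 7 of the 9 fits that left out 1 library, adjusted p up to 0.2 without BAQ12O replicate 2), proteasome subunits had 1 of 31 lower, PSMC3 (-0.47, call lost in 5 of the 9 fits, adjusted p up to 0.13 without BAQ12O replicate 1), and cytosolic ribosomal proteins had 0 of 76. Over all genes tested, 1.07% were called higher and 1.52% lower. Without BAQ13 replicate 1, 13 of the 76 ribosomal protein genes were called lower, and the median of all 76 was -0.11. In that fit, 265 of 10407 genes tested were lower. PLAUR and PSMC3 lost the call with all 15 libraries (adjusted p 0.44 to 0.49), PLAUR and PSMC3 with the 6 treated libraries alone (adjusted p 0.07 to 0.15), PSMC3 by DESeq2 (adjusted p = 0.079), PLAUR by edgeR's quasi-likelihood test (adjusted p = 0.058), PLAUR without a filter on low counts (adjusted p = 0.078), PLAUR with a replicate block (adjusted p = 0.054) and PLAUR with pseudocount 5 (adjusted p = 0.051).

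**Figure D5:**
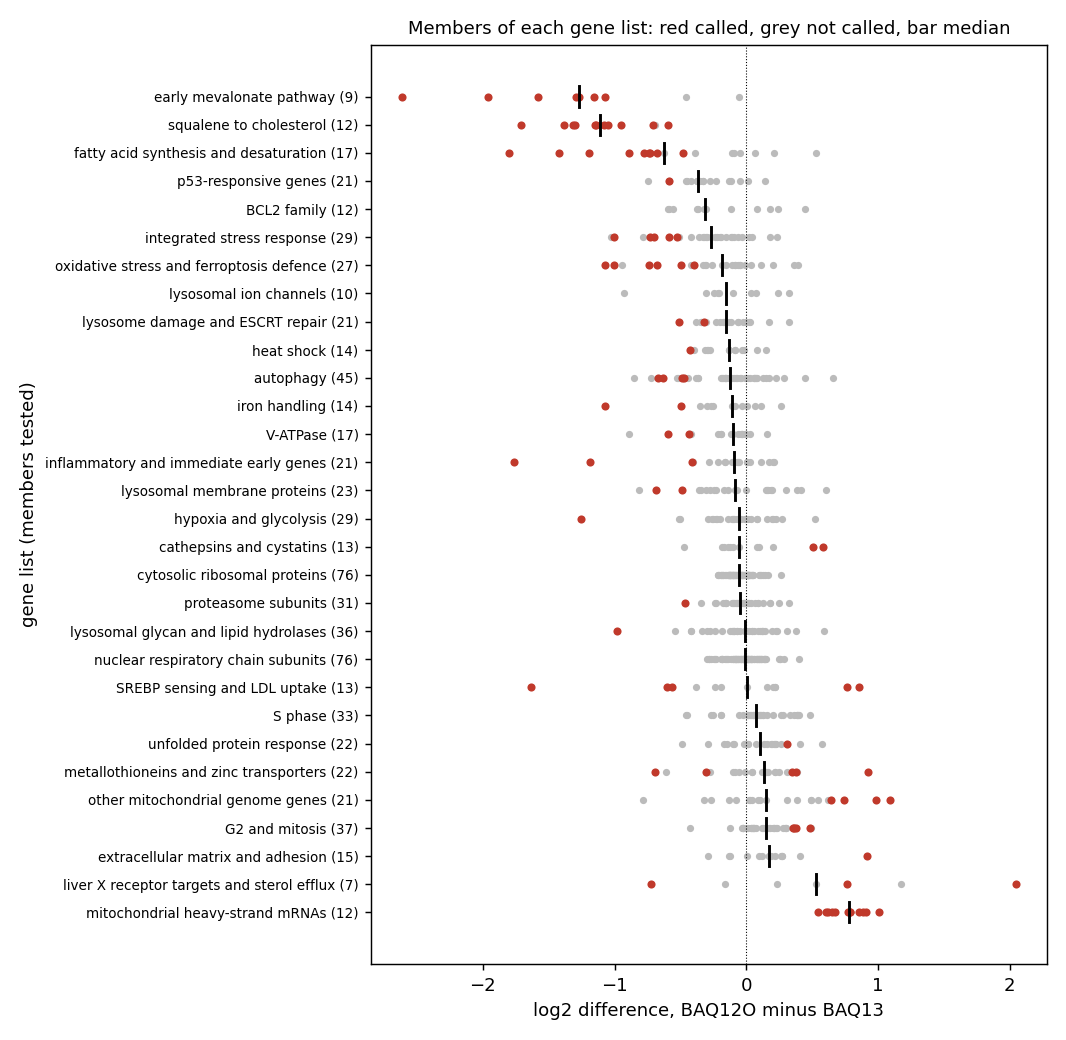
Log2 difference BAQ12O minus BAQ13 (horizontal axis) of each tested member of 30 gene lists (vertical axis, with the number tested), red where the adjusted p is under 0.05 and grey otherwise; the bar is the list's median. The lists of sterol and fatty acid synthesis have the lowest medians, down to -1.27, and the mitochondrial heavy-strand mRNAs the highest, 0.78.

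Among genes with a mean level of at least 20, the 3 largest increases were in transcripts annotated as not protein-coding. KCNQ1OT1 (chromosome 11, 2608328 to 2699994, minus strand), the antisense RNA of an imprinted region, was at 94.2, 81.1 and 76.3 with BAQ13, 202, 168 and 183 with BAQ12O and 129, 153 and 128 with vehicle. BAQ12O was highest here and BAQ13 lowest, with a difference of 1.13 ± 0.12 (adjusted p = 3.4e-06, limma). It overlaps KCNQ1 on the other strand, and whether the counting used strand is not given in the sources used here. RP11-631N16.2, a long intergenic RNA on chromosome 12, was at 12.1, 16.4 and 10.1 with BAQ13 and 30.2, 32.4 and 34.5 with BAQ12O (1.29, adjusted p = 0.0022, limma). RP1-68D18.2, annotated inside an intron on chromosome 11, was at 15.9, 10.9 and 14.2 with BAQ13 and 35.6, 28.6 and 30.3 with BAQ12O (1.16, adjusted p = 0.0068, limma). It lies within CD44 on the same strand, so reads of CD44 may fall on it. CD44 averaged 2080 with BAQ13 and 2415 with BAQ12O and did not pass (0.22, adjusted p = 0.072, limma). The part of CD44 in this increase was not tested. Of the protein-coding genes, CSAD, which makes hypotaurine, differed by 1.04, CD47, the signal that restrains phagocytosis, by 0.90, and SLC16A5, a monocarboxylate transporter family member, by 0.90. SNORA11, a small nucleolar RNA, differed by 0.91. Calls lost on leaving out 1 library were those of RP1-68D18.2 (without BAQ13 replicate 2, adjusted p = 0.053), CSAD (without BAQ12O replicate 3, adjusted p = 0.083 and without BAQ12O replicate 2, adjusted p = 0.071), CD47 (without BAQ12O replicate 3, adjusted p = 0.12 and without BAQ12O replicate 1, adjusted p = 0.051), SLC16A5 (in 7 of the 9 fits, adjusted p up to 0.15 without BAQ12O replicate 2) and SNORA11 (in 7 of the 9 fits, adjusted p up to 0.21 without BAQ13 replicate 2). CD47 and SNORA11 lost the call with all 15 libraries (adjusted p 0.1 to 0.2), CD47, SLC16A5 and SNORA11 with the 6 treated libraries alone (adjusted p 0.051 to 0.089) and SLC16A5 without a filter on low counts (adjusted p = 0.066).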

How the data were processed

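Total RNA of MIA PaCa-2 cells was sequenced and the authors deposited, for each library, the reads per gene divided by a size factor (a normalised signal, not raw counts). The submitters' processing notes name STAR, HTSeq, DESeq2 and the builds GRCh38 and hg38, with no versions. The labels name a 3′ QuantSeq kit and the study's methods a stranded paired-end kit, and which applies, and whether counting used strand, was not settled here. In every library 100% of the values above 0 were whole multiples of the value of 1 read (tolerance 0.01 read), so that reads could be recovered, and their medians of ratios gave the deposited size factors.

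The main test was limma 3.58.1 (R 4.3.3) on log2(normalised value + 1) with a mean-variance trend, over the 9 libraries of vehicle, BAQ13 and BAQ12O, without covariates. Genes passed edgeR's filterByExpr (minimum count 10, minimum total 15), which left 10234. Fold changes on this scale understate those of genes with few reads. Genes were called at a Benjamini-Hochberg adjusted p under 0.05, two-sided. Alternatives were edgeR 4.0.16 (quasi-likelihood) and DESeq2 1.42.0 on the recovered reads, other pseudocounts, filters, scaling and library sets, and each library left out. The script was tested on simulated data.

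The members and the gene lists were chosen with earlier results of these data known. Named genes were the 12 largest called differences per direction (mean level at least 20, groups without overlap), the 4 smallest p-values per list and a set given by name. Other called list members and BID were named after their values were seen. Intervals on read ratios are exact and cover counting error only. Promoter windows are from RefSeq. Apart from the size factors, which medians of ratios over all 15 libraries gave, deposited files of Lys05 and BAQ12 entered alternatives only. Some genes are not reported here, although the counts and medians of lists include all members tested.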

Additional observations from a re-analysis of the deposited data

How the results depend on the processing

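The 265 calls between BAQ12O and BAQ13 became 151 with the 6 treated libraries alone and 146 with all 15 libraries. With 14 libraries, without BAQ12 replicate 3, 389 genes were called, 263 of the 265 among them. The lowest correlation of BAQ12 replicate 3 within its own group was 0.929. Calls lost with all 15 libraries stand beside that fit of 14. Pseudocounts 0.1 and 5 gave 260 and 272 calls, no filter 294 and edgeR's quasi-likelihood test 271. DESeq2 called 185 and gave no adjusted p to 3770 genes, 25 of the 265 among them. Leaving out 1 library gave 140 to 473, moving by over 1.5 times without BAQ13 replicate 1 (473), BAQ13 replicate 2 (140), BAQ13 replicate 3 (423), BAQ12O replicate 2 (140) and BAQ12O replicate 3 (153). The 89 genes past the study's threshold became 41 with pseudocount 5, 37 with at least 10 reads in every library and 493 without a filter, and 100 to 143 on leaving out 1 library, the highest without BAQ12O replicate 2. The cause was not tested, except that the filters change which genes enter.

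Against vehicle, the fit of all 15 libraries called 155 genes with BAQ12O and 606 with BAQ13. Leaving out 1 library gave 130 to 828 for BAQ12O, with 201, 149 and 130 without vehicle replicates 1, 2 and 3, 828 and 559 without BAQ13 replicates 1 and 3, and 209, 174 and 179 without BAQ12O replicates 1, 2 and 3. For BAQ13 it gave 626 to 1589, with 637 and 626 without vehicle replicates 2 and 3.

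Replicate numbers are shared by the groups. Deviations of log2 levels from the group mean, gene by gene, correlated at only -0.05, -0.01 and 0.06 between same-numbered BAQ13 and BAQ12O libraries. The numbers were therefore not taken as pairs. With a replicate block 302 genes were called, and 287 with the block and a GC correction, against 290 with the GC correction alone (GC value for 10188 of 10234 genes; added after seeing the data, as were the vehicle counts).

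Of 2699 recomputed differences of named genes, 2428 kept direction and call, 233 lost the call and 30 gained it. The 8 that changed sign were never called and came from 5 genes on leaving out 1 library. The range was -0.47 to 0.0064 for CLCN7 (above 0 without BAQ13 replicate 1), -0.23 to 0.022 for CTSD (without BAQ12O replicate 3), -0.17 to 0.034 for GABARAPL1 (without BAQ13 replicate 2, BAQ12O replicate 1 or BAQ12O replicate 3), -0.17 to 0.16 for PMVK (without BAQ13 replicate 2 or BAQ12O replicate 2) and -0.39 to 0.0020 for DDIT3 (without BAQ13 replicate 1). Genes with few reads, such as ABCA1 and TSC22D3, which DESeq2 gave no adjusted p, have wide intervals at this depth.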
